A study of Mus musculus with 8 samples.

Results

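The genes described here are the nuclear receptors that bind retinoic acid (Rara, Rarb and Rarg), the retinoid X receptors they pair with (Rxra, Rxrb and Rxrg), the retinol receptor Stra6 and the COUP-TF genes Nr2f1 and Nr2f2. They are 9 of the 49315 genes in the count tables and were chosen by name, not by their values, by matching each symbol to its Ensembl identifier. All 9 were found and all 9 passed the filter on low counts, with between 17 and 4577 reads per library.

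Retinoic acid is made from retinol inside the cell and acts on genes through a heterodimer of a retinoic acid receptor (RAR) and a retinoid X receptor (RXR), which sits on paired hexamers in DNA, holds corepressors without ligand and recruits coactivators with it. Stra6 is a membrane protein that takes up retinol from its carrier in blood. COUP-TF factors are orphan receptors of the same superfamily that bind similar hexamers, pair with RXR and are known in the heart for roles in atrial and venous identity, and retinoic acid signalling marks the posterior, inflow end of the early heart.

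RNA-seq was performed on whole embryonic mouse hearts dissected at embryonic day 9.5, from wild-type (WT) embryos and from embryos homozygous for Tbx20EH1Mut. This allele carries a substitution of 2 adjacent residues in the engrailed homology domain of the T-box factor Tbx20 that disrupts binding to TLE corepressors, and was made by genome editing in the germline, so every cell of the embryo carried it. Each library held RNA of 3 pooled hearts, with 4 libraries per genotype, so p-values measure the spread between pools. The question was how transcription in the heart changes when Tbx20 cannot recruit TLE.

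The libraries held between 33359322 and 49523086 counts. All 7 cardiomyocyte markers were abundant in every library, with a summed level of 25063 to 29266 CPM (counts scaled to a library of fixed size) in WT and 22724 to 30871 in Tbx20EH1Mut, and 0 of the 7 were called between genotypes by edgeR or limma-voom, against 2 by DESeq2 and 2 with an unadjusted p under 0.05. The allele changes residues and removes no exon, so Tbx20 counts could not check the labels. A quasi-likelihood test in edgeR called 2406 of 17163 tested genes higher and 2618 lower in Tbx20EH1Mut at an adjusted p of at most 0.05. Libraries differed within a genotype too. WT replicate 1 lay nearer to the mutants on the first principal component than the other WT libraries (-14.4 against -59.2 to -71.4). Foregut epithelium markers, which a dissected heart should lack, summed to 3.85, 76.7, 1.49 and 14.5 CPM in WT replicates 1 to 4 and to 248, 202, 37.9 and 107 CPM in Tbx20EH1Mut replicates 1 to 4, with none of the 10 markers at 0 over all libraries. Of these 10 markers, edgeR called 3 higher and 0 lower, limma-voom called 6, and 6 had an unadjusted edgeR p under 0.05. The share called by edgeR was 30%, against 29.3% of all genes. Of the 3, Shh lost its call in 1, Epcam in 5 and Foxa2 in 6 of the 8 fits that left out a library. The summed levels overlapped between genotypes (exact two-sided permutation test, p = 0.0571).

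The start of Rarb is shown first, because it was the only one of the 9 genes' starts found to hold a classical retinoic acid response element, 2 core hexamers in direct repeat with 5 bases between them (DR5). RefSeq's table for GRCm38.p6 gave 20 windows of 300 bases for the 9 genes, each from 250 bases before a transcript start to 50 after it. The hexamers searched on both strands were the consensus word AGGTCA, the variant word AGTTCA, the variant word GGGTCA and the variant word GGTTCA, and every hexamer of a repeat is also counted as a single hexamer. The Rarb window lies on the minus strand at chr14:16575427-16575726, and capitals mark the hexamers. The window of Nr2f2, which had the largest called rise of the 9, lies on the minus strand at chr7:70366697-70366996 and held none of the 4 hexamers.
Rarb: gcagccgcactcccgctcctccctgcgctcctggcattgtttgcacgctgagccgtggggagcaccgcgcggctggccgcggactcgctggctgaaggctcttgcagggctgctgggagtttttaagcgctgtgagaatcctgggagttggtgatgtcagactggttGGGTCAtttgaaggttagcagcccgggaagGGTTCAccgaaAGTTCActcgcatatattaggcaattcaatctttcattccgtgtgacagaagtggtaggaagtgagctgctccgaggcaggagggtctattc
Nr2f2: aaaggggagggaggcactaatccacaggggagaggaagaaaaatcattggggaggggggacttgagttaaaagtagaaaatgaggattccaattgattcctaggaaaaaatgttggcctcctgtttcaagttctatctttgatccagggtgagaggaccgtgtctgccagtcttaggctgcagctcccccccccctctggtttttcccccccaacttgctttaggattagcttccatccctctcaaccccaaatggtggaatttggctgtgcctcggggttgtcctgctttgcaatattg
The Rarb repeat, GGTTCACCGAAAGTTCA, lies at chr14:16575513-16575529 and begins 53 bases before the start. Among 32851 windows of all genes in the table, 32 windows of 31 genes held such a repeat, or 0.0974%. The other 19 windows of the 9 genes held none. Repeats with a spacing of 1 or 2 bases were found in 0 of the 20 windows, against 0.222% and 0.268% of all windows. A single hexamer was found in 9 of the 20 windows, against 43.7% of all windows. The T-box word AGGTGT was found in 3 of the 20 windows, those of Rxra, Stra6 and Rarg, against 13.7% of all windows. A match is a description of the letters and not a bound site, and a window without a match says nothing of sites elsewhere.

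Of the 9 genes, Nr2f2 and Rarb rose and Rxra fell in Tbx20EH1Mut hearts at the threshold, and the other 6 did not pass it. The 3 calls compare with a background of 29.3% of all genes tested called in either direction (14% higher and 15.3% lower), so the share called was near that of any genes. When a change of at least 1.5-fold was also asked for, Nr2f2 and Rarb were called, against 21.7% of all genes (11.5% higher and 10.3% lower). The libraries of the genotypes did not overlap for 2 of the 9, Nr2f2 and Rxra, against 30.5% of all genes. The median log2 fold change was 0.14 over the 9 genes and 0.0048 over all genes tested.

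**Figure D1:**
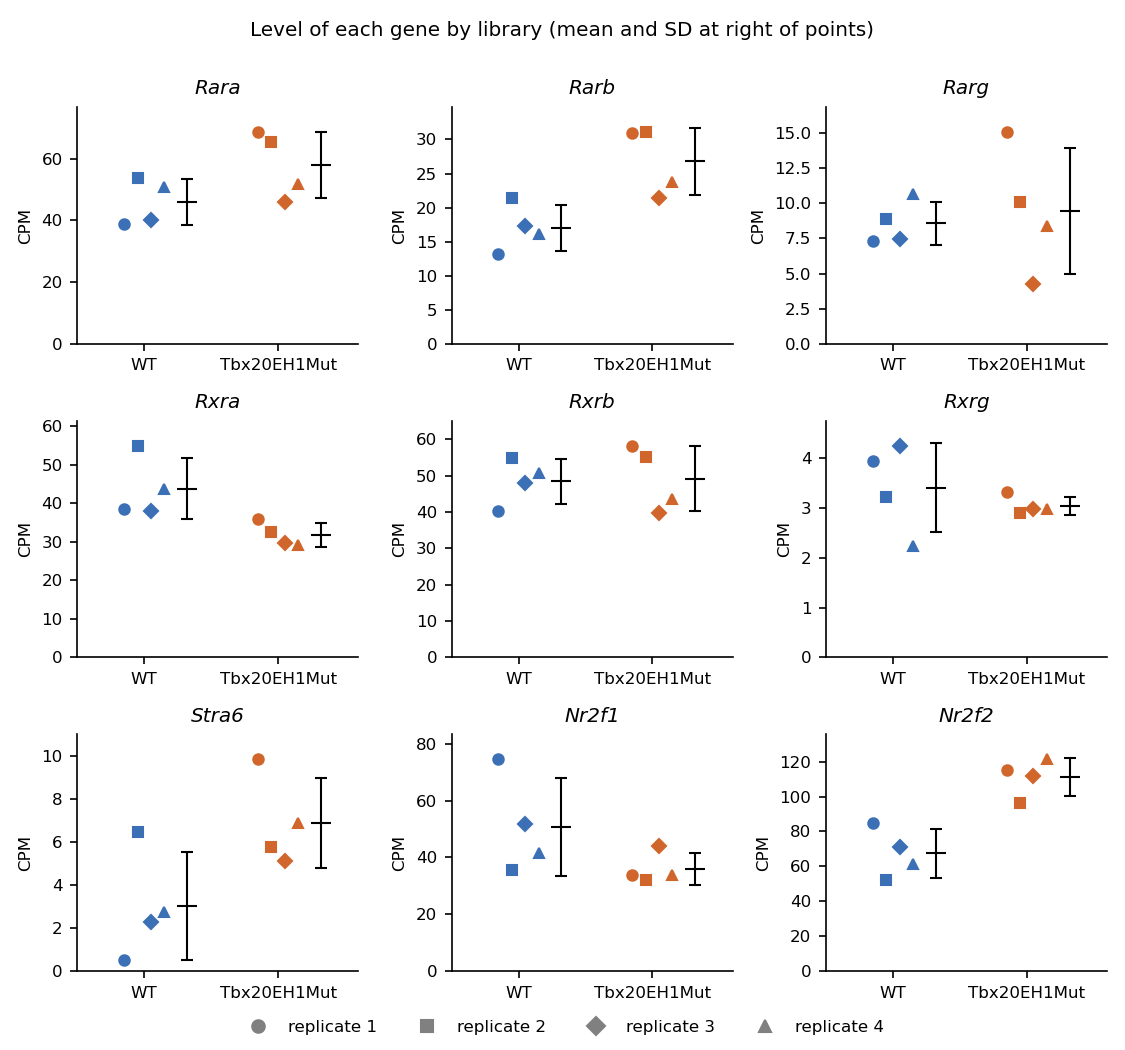
Level of each of the 9 genes in CPM (linear axes from 0) in each WT (blue) and Tbx20EH1Mut (orange) library. Marker shapes give replicate numbers, and the bar beside each group is its mean with 1 SD (n = 4). Nr2f2 is higher in every Tbx20EH1Mut library and Rxra lower in every one, while the other genes overlap.

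Rara, the most widely expressed of the retinoic acid receptors (ENSMUSG00000037992, chr11:98927818-98974942, plus strand, GRCm38), was measured at 39.0, 53.9, 40.2 and 50.8 CPM in WT replicates 1 to 4 and at 68.5, 65.3, 46.0 and 51.9 CPM in Tbx20EH1Mut replicates 1 to 4. The highest levels were those of Tbx20EH1Mut replicates 1 and 2, while replicates 3 and 4 lay within the WT range. The log2 fold change was 0.33 ± 0.16 (SE; 95% interval -0.02 to 0.69), which did not pass the test (edgeR, adjusted p = 0.139).

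Rarb, a receptor whose gene is itself a direct target of retinoic acid (ENSMUSG00000017491, chr14:16430842-16575472, minus strand), rose from 17.0 ± 3.43 CPM in WT to 26.8 ± 4.92 in Tbx20EH1Mut (SD, n = 4). Its WT levels were 13.2, 21.5, 17.3 and 16.1 CPM and its Tbx20EH1Mut levels 31.0, 31.0, 21.4 and 23.8. The groups met at their edges, where WT replicate 2 lay just above Tbx20EH1Mut replicate 3. The log2 fold change was 0.65 ± 0.18 (SE; 95% interval 1.2- to 2.07-fold; edgeR, adjusted p = 0.0223). The exact two-sided permutation test of the mean CPM gave p = 0.0571, and on the TPM scale the ratio of means was 1.32 (exact permutation p = 0.229) against 1.57 in CPM. TPM gave a lower ratio than CPM for each of the 9 genes. The call depended on the libraries included. Without WT replicate 3, WT replicate 4, Tbx20EH1Mut replicate 1 or Tbx20EH1Mut replicate 2, edgeR's adjusted p was 0.0612, 0.0703, 0.0560 and 0.0570, while the log2 fold change stayed between 0.55 and 0.80 over the 8 fits. In both genotypes Rarb was higher in the libraries with the most foregut marker message, WT replicate 2 and Tbx20EH1Mut replicates 1 and 2. WT replicate 3, with the least such message (1.49 CPM), stood above WT replicates 1 and 4 in Rarb. When the mean log2 level of the foregut markers entered the fit, the log2 fold change was 0.28 (edgeR, adjusted p = 0.341). The foregut markers themselves move with genotype, so this fit cannot separate foregut tissue from genotype. The part of foregut tissue in this difference was not tested.

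Rarg, a receptor known from skin and precartilage mesenchyme (ENSMUSG00000001288, chr15:102234938-102257517, minus strand), ranged from 7.28 to 10.6 CPM in WT and from 4.22 to 15 CPM in Tbx20EH1Mut. Both the lowest and the highest library were mutant, so the groups overlapped fully (log2 fold change 0.14 ± 0.32 SE; edgeR, adjusted p = 0.766). The interval of -0.57 to 0.85 leaves a wide range of differences possible.

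Expressed per kilobase of exon, so that the genes could be compared with each other, the RAR message of a WT heart was 57.8% ± 2.10 Rara, 30.8% ± 3.23 Rarb and 11.5% ± 1.38 Rarg (SD, n = 4). In Tbx20EH1Mut the shares were 54.6% ± 1.46, 36.4% ± 1.45 and 9.04% ± 2.81. The share of Rarb lay between 27.2% and 34.1% in WT and between 34.5% and 37.9% in Tbx20EH1Mut, with no overlap, while those of Rara and Rarg overlapped. These shares hold the same counts as the levels above and were not tested.

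Rxra, the RXR whose loss is known to impair growth of the embryonic heart muscle (ENSMUSG00000015846, chr2:27676440-27762957, plus strand), was the only receptor of the 6 RAR and RXR genes called lower. It was measured at 38.5, 54.9, 37.9 and 43.8 CPM in WT replicates 1 to 4 and at 36.0, 32.5, 29.8 and 29.1 CPM in Tbx20EH1Mut replicates 1 to 4. Every mutant library lay below every WT library, by a narrow margin between WT replicate 3 and Tbx20EH1Mut replicate 1, and WT replicate 2 stood highest. The mean fell from 43.8 ± 7.88 to 31.9 ± 3.14 CPM, a ratio of 0.727 (log2 fold change -0.46 ± 0.14 SE; edgeR, adjusted p = 0.0343). The exact permutation test of the mean CPM gave p = 0.0286, the smallest that 70 arrangements can give. The call was close to the threshold. It was lost without WT replicate 2 (log2 fold change -0.32, edgeR adjusted p = 0.0641), WT replicate 4 (adjusted p = 0.0805) and Tbx20EH1Mut replicates 2, 3 and 4 in turn (adjusted p = 0.0621, 0.0656 and 0.0998). It was also lost with upper-quartile scaling (log2 fold change -0.37, edgeR adjusted p = 0.0546). With the foregut markers in the fit the fall was larger, at -0.81 (edgeR, adjusted p = 0.00221).

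Rxrb, the broadly expressed RXR (ENSMUSG00000039656, chr17:34031812-34038393, plus strand), was measured at 48.5 ± 6.17 CPM in WT and 49.2 ± 8.93 CPM in Tbx20EH1Mut (SD, n = 4). The groups overlapped, and the log2 fold change was 0.02 with a 95% interval of -0.31 to 0.35 (edgeR, adjusted p = 0.931). Rxrg, an RXR of skeletal muscle and brain that is scarce in the early heart (ENSMUSG00000015843, chr1:167598384-167639623, plus strand), was the lowest of the 6 receptors per length, with 3.41 ± 0.898 CPM in WT and 3.04 ± 0.189 CPM in Tbx20EH1Mut. It overlapped as well (log2 fold change -0.17, interval -0.69 to 0.36; edgeR, adjusted p = 0.625).

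Within the RXR family, Rxra made up 35.3% ± 2.63 of the message per exon length in WT and 28.7% ± 1.90 in Tbx20EH1Mut, and Rxrb 58.0% ± 2.42 and 64.8% ± 2.66 (SD, n = 4). The Rxra share lay between 31.9% and 38.2% in WT and between 26.9% and 31.2% in Tbx20EH1Mut. The Rxrb share lay between 55.4% and 60.4% in WT and between 61.4% and 67.4% in Tbx20EH1Mut, so neither overlapped.

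Because RAR and RXR act as pairs, their summed levels per exon length were set against each other. The ratio of RXR to RAR message was 1.31, 1.22, 1.30 and 1.16 in WT replicates 1 to 4 and 0.804, 0.801, 0.938 and 0.845 in Tbx20EH1Mut replicates 1 to 4. By this measure RXR message exceeded RAR message in every WT library, and the reverse held in every mutant library. The reversal depended in part on the division by exon length. In summed CPM, RXR message slightly exceeded RAR message in Tbx20EH1Mut replicate 3 as well. The totals themselves overlapped between genotypes, at 18.2 ± 2.90 and 24.4 ± 5.07 CPM per kilobase for RAR and at 22.6 ± 2.78 and 20.4 ± 2.99 for RXR in WT and Tbx20EH1Mut. The ratio is a description, made after the levels had been seen, of message and not of receptor protein.

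**Figure D2:**
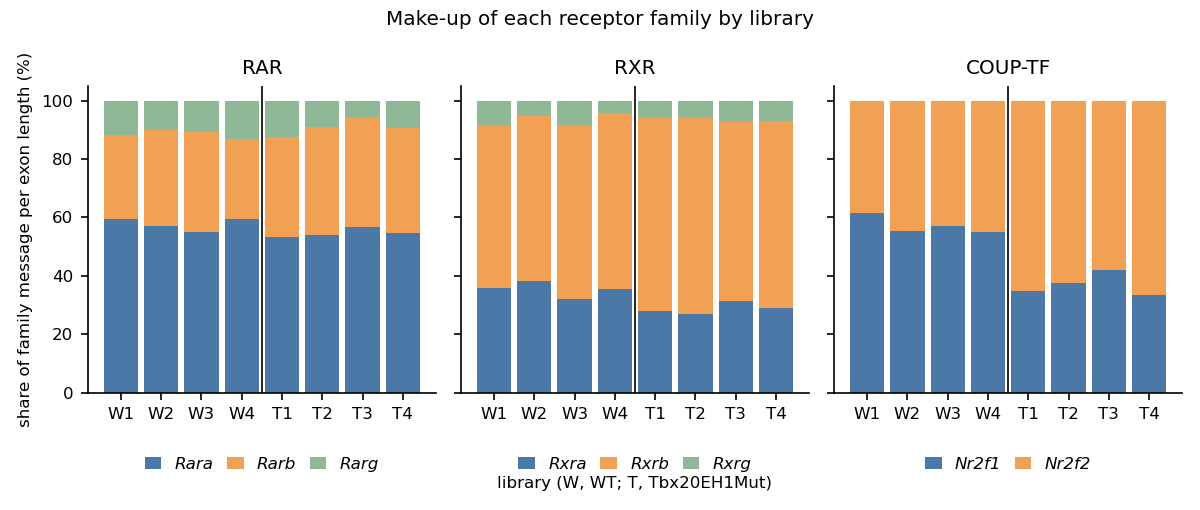
Share (%) of each family's message per exon length taken by each gene, in WT (W1 to W4) and Tbx20EH1Mut (T1 to T4) libraries; each bar sums to the whole family. Nr2f2 takes 38.6% to 45.0% of COUP-TF message in WT and 58.2% to 66.5% in Tbx20EH1Mut, and the Rxra share is lower in every mutant library.

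Stra6, the retinol receptor (ENSMUSG00000032327, chr9:58063788-58153996, plus strand), was the scarcest of the 9 genes per length, at 0.516 ± 0.430 CPM per kilobase in WT and 1.18 ± 0.36 in Tbx20EH1Mut. Its levels were 0.516, 6.48, 2.29 and 2.75 CPM in WT replicates 1 to 4, from 17, 318, 115 and 126 counts. In Tbx20EH1Mut replicates 1 to 4 they were 9.84, 5.76, 5.09 and 6.89 CPM. WT replicate 2, the WT library with the most foregut marker message, stood within the mutant range, and the other 3 WT libraries lay below it. The log2 fold change was 1.19 ± 0.56 (SE; 95% interval -0.05 to 2.42) and did not pass the test (edgeR, adjusted p = 0.129). Without WT replicate 2 it was 1.90 (edgeR, adjusted p = 0.0227), and with the foregut markers in the fit it was 0.15 (edgeR, adjusted p = 0.853).

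Nr2f2, which encodes COUP-TFII, a factor of atrial and venous identity (ENSMUSG00000030551, chr7:70351944-70366735, minus strand), rose in Tbx20EH1Mut hearts. It was measured at 85, 51.9, 71.1 and 61.6 CPM in WT replicates 1 to 4 and at 115, 96.3, 112 and 121 CPM in Tbx20EH1Mut replicates 1 to 4. Every mutant library lay above every WT library. The mean rose from 67.4 ± 14.1 to 111 ± 10.7 CPM, a ratio of 1.65 (log2 fold change 0.72 ± 0.15 SE, 95% interval 1.30- to 2.09-fold; edgeR, adjusted p = 0.00789), and the exact permutation test gave p = 0.0286. The call held in all 8 fits that left out a library (log2 fold change 0.63 to 0.85, edgeR adjusted p 0.00228 to 0.0322) and in all 8 other settings, where the adjusted p was at most 0.0111. With the foregut markers in the fit its log2 fold change was 1.07 (edgeR, adjusted p = 0.00273).

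Nr2f1, which encodes COUP-TFI (ENSMUSG00000069171, chr13:78188973-78199757, minus strand), did not pass the test. It was measured at 74.6, 35.4, 51.8 and 41.4 CPM in WT replicates 1 to 4 and at 33.7, 32, 44.2 and 33.6 CPM in Tbx20EH1Mut replicates 1 to 4. The WT libraries spread widely, with replicate 1 highest and replicates 2 and 4 within the mutant range, and Tbx20EH1Mut replicate 3 stood above the other mutants. The log2 fold change was -0.50 ± 0.22 (SE; 95% interval -0.98 to -0.02; edgeR, unadjusted p = 0.0435, adjusted p = 0.105). Without WT replicate 2 it was -0.63 (edgeR, adjusted p = 0.0465), and over the 8 fits it ranged from -0.63 to -0.26. The foregut marker covariate turned its sign, to 0.10 (edgeR, adjusted p = 0.752).

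The balance of the COUP-TF genes differed between the genotypes in every library. Per exon length, the ratio of Nr2f2 to Nr2f1 was 0.628, 0.807, 0.756 and 0.819 in WT replicates 1 to 4 and 1.89, 1.66, 1.39 and 1.99 in Tbx20EH1Mut replicates 1 to 4. By this measure Nr2f1 was the more abundant message in every WT library and Nr2f2 in every mutant library. The order in WT depended on the division by exon length, 4752 bases for Nr2f1 and 8625 for Nr2f2. In CPM, Nr2f2 was the higher in every library of both genotypes. Nr2f2 made up 42.8% ± 2.96 of COUP-TF message in WT and 63.1% ± 3.71 in Tbx20EH1Mut (SD, n = 4). The COUP-TF total overlapped between genotypes, at 18.5 ± 5.24 and 20.4 ± 1.85 CPM per kilobase. Whether the fold changes of these genes differ from each other was not tested.

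Each COUP-TF gene has a noncoding gene on the opposite strand that shares exon bases with it, and the count tables do not state a strand setting. B130024G19Rik (ENSMUSG00000100005, chr7:70364910-70489972, plus strand) covers all 643 bases of the first exon of Nr2f2, or 7.46% of its exon length. It rose from 1.43 ± 0.469 CPM in WT to 4.18 ± 1.40 in Tbx20EH1Mut (SD, n = 4), with levels of 2.12, 1.28, 1.10 and 1.22 against 4.95, 3.32, 2.72 and 5.72 CPM. These groups did not overlap (log2 fold change 1.55 ± 0.32 SE; edgeR, adjusted p = 0.00679), and with the foregut markers in the fit the log2 fold change was 1.47 (edgeR, adjusted p = 0.0554).

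A830082K12Rik (ENSMUSG00000087143, chr13:78198017-78279391, plus strand) shares 123 bases with the first exon of Nr2f1, or 2.59% of its exon length. It fell from 3.91, 3.71, 4.04 and 4.32 CPM in WT to 1.92, 2.12, 1.63 and 2.33 CPM in Tbx20EH1Mut, with no overlap (log2 fold change -0.997 ± 0.20 SE; edgeR, adjusted p = 0.00665). Reads in the shared bases cannot be told apart by gene without strand. Counts of the neighbours were few beside those of the COUP-TF genes. B130024G19Rik had 1.54 to 2.5 counts per 100 of Nr2f2 in WT and 2.44 to 4.72 in Tbx20EH1Mut, and A830082K12Rik 5.25 to 10.5 and 3.68 to 6.93 per 100 of Nr2f1. No other gene of the 9 shared exon bases with a listed gene.

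**Figure D3:**
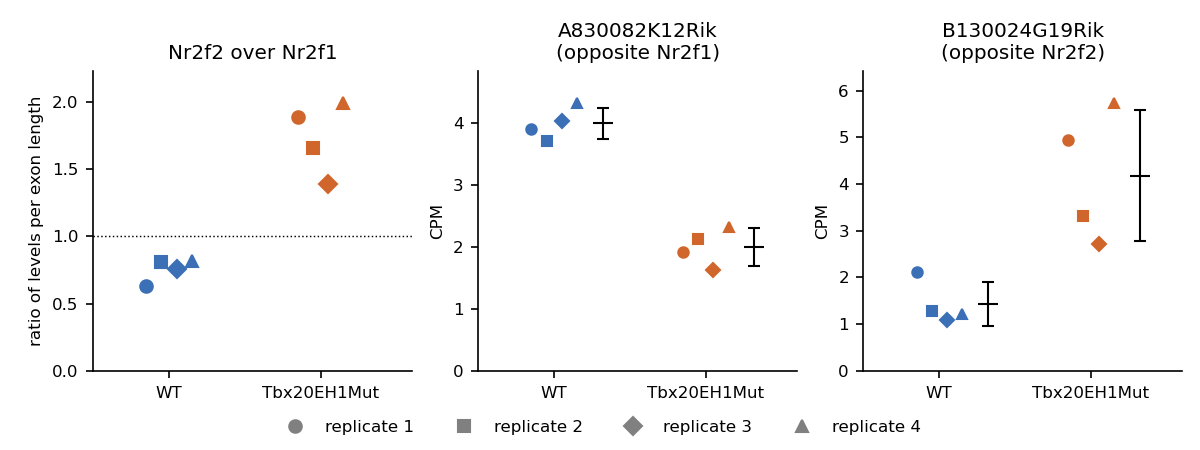
Left, ratio of Nr2f2 to Nr2f1 message per exon length in each library, with equality dotted. Middle and right, CPM of the noncoding genes opposite Nr2f1 and Nr2f2; bars give the mean and 1 SD (n = 4), and in all 3 panels the genotypes do not overlap.

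**Figure D4:**
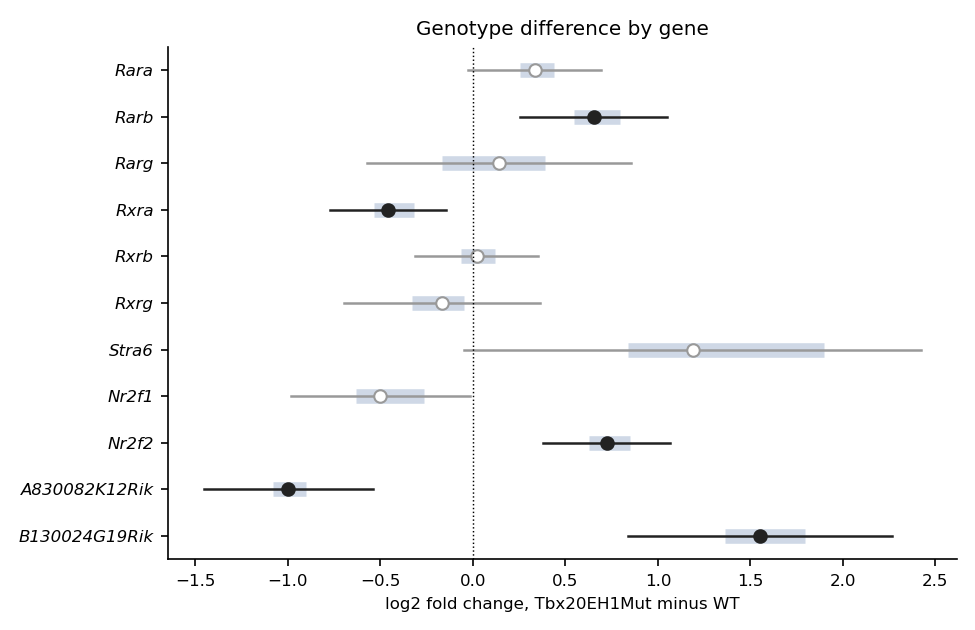
Log2 fold change (Tbx20EH1Mut minus WT) of the 9 genes and the opposite-strand neighbours. Lines are 95% intervals, pale bars span the 8 fits that left out a library, and filled points passed an adjusted p of 0.05 in edgeR. Nr2f2, Rarb, Rxra and both neighbours are filled, and only the bars of Rarg and Rxrb reach across 0.

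In order of level per exon length, the WT means ran from Rxrb (13.1 ± 1.67 CPM per kilobase) through Nr2f1 (10.7 ± 3.63), Rara (10.5 ± 1.71), Rxra (8.02 ± 1.44), Nr2f2 (7.81 ± 1.64), Rarb (5.61 ± 1.13), Rarg (2.08 ± 0.378) and Rxrg (1.48 ± 0.391) to Stra6. Between neighbours in this order the WT libraries overlapped except between Rarb and Rarg. In Tbx20EH1Mut, Rxrb (13.3 ± 2.41), Rara (13.3 ± 2.45) and Nr2f2 (12.9 ± 1.24) stood together at the top, followed by Rarb (8.84 ± 1.62), Nr2f1 (7.55 ± 1.18) and Rxra (5.83 ± 0.574).

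COUP-TF message marks veins, endocardium, atria and the mesenchyme around the gut, and in whole hearts more cells of a type and more RNA per cell cannot be told apart. The markers of these cells moved in different directions beside the rise of Nr2f2. Among all genes tested, 29.3% were called, 14% higher and 15.3% lower. The share called was 50% for sinus venosus and atrial markers, 40% for venous endothelial markers and 50% for general endothelial markers. Of 6 tested sinus venosus and atrial markers, 3 fell and 0 rose, and their sum of 263 to 330 CPM in WT did not overlap 167 to 195 CPM in Tbx20EH1Mut; Tbx5, an atrial and inflow T-box factor, fell from 102 ± 4.60 to 58.6 ± 6.94 CPM (edgeR, adjusted p = 9.92e-04). The fall of Shox2, a factor of the sinus node, was lost with the foregut markers in the fit (log2 fold change -0.74 against -2.06; edgeR, adjusted p = 0.294) and without WT replicate 3 (0.0516) or Tbx20EH1Mut replicate 4 (0.0586). Of 5 venous endothelial markers, 2 rose, Aplnr (log2 fold change 1.18; edgeR, adjusted p = 0.00947) and Dab2 (0.62; edgeR, adjusted p = 0.0176), and the sums overlapped (208 to 370 against 294 to 332 CPM). Of 6 general endothelial markers, 3 rose, and their sum was 511 to 654 CPM in WT and 666 to 733 CPM in Tbx20EH1Mut. Of these 3, Pecam1 was called in every fit, Kdr was lost with the foregut markers in the fit (log2 fold change 0.42; edgeR, adjusted p = 0.122), and Emcn was lost without WT replicates 2, 3 or 4 or Tbx20EH1Mut replicates 3 or 4 (edgeR, adjusted p = 0.0802 to 0.110). The call of Dab2 was lost without WT replicate 3, WT replicate 4 or Tbx20EH1Mut replicate 4 (edgeR, adjusted p = 0.0606, 0.0639 and 0.0539). With the foregut markers in the fit neither venous marker was called, at a log2 fold change of 0.56 for Aplnr and 0.39 for Dab2 (edgeR, adjusted p = 0.138 and 0.148).

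Splanchnic mesoderm markers had 3 of 7 higher and 1 lower, with overlapping sums (106 to 164 against 95.9 to 193 CPM). The share called was 57.1% here, 16.7% for proepicardial, 25% for neural crest and 100% for erythroid markers, against 29.3% of all genes. The 1 lower call was Wnt2 (log2 fold change -1.63; edgeR, adjusted p = 2.89e-04), which stayed called with the foregut markers in the fit (-1.44; edgeR, adjusted p = 0.00144). The 3 higher calls, Foxf1, Osr1 and Barx1, were lost with the foregut markers in the fit (log2 fold change 1.09, 1.30 and 0.70; edgeR, adjusted p = 0.238, 0.0892 and 0.295). Foxf1 was also lost without WT replicate 3, WT replicate 4 or Tbx20EH1Mut replicate 1 (edgeR, adjusted p = 0.0777, 0.0601 and 0.0742), and Barx1 with limma-voom (0.0558) and without WT replicates 2, 3 or 4 or Tbx20EH1Mut replicates 2 or 4 (edgeR, 0.0536 to 0.0849). Proepicardial markers summed to 179 CPM in WT replicate 1 and to 58.4 to 84.8 CPM in the other WT libraries, against 122 to 166 CPM in Tbx20EH1Mut. Only 1 of the 6, Wt1, was called (log2 fold change 1.59; edgeR, adjusted p = 0.00118), and the median log2 fold change of the 6 was -0.10. WT replicate 1 was also the WT library with the most Nr2f1 and Nr2f2. Neural crest markers were low, at 6.41 to 12 CPM in WT and 12.7 to 27.9 CPM in Tbx20EH1Mut, with 1 of 4 tested called higher. All 6 erythroid markers fell (sum 1758 to 4596 against 319 to 1025 CPM). No list had a marker at 0 in every library. The part of any of these cells in the receptor levels was not tested, and the foregut covariate cannot separate tissue from genotype.

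Upstream of the receptors stand the genes of retinoid handling. Of 17 genes that carry, make or break down retinoids, 15 were tested, 9 rose, 2 fell and 4 did not pass (73.3% called against 29.3% of all genes; median log2 fold change 1.35). The retinol carriers Rbp2 (log2 fold change 2.18) and Rbp4 (3.24) rose, with edgeR adjusted p of 0.00132 and 0.00540. Both were low, at 0.547 ± 0.111 and 2.49 ± 0.771 CPM for Rbp2 and 0.966 ± 0.510 and 9.01 ± 8.66 CPM for Rbp4. Tbx20EH1Mut replicate 2 stood highest for Rbp4, at 21.8 CPM. With the foregut markers in the fit Rbp4 stood at 2.66 and was no longer called (edgeR, adjusted p = 0.0883). Aldh1a1, an enzyme that oxidizes retinal to retinoic acid, fell from 3.85 ± 4.05 to 0.487 ± 0.355 CPM (log2 fold change -2.96; edgeR, adjusted p = 0.0265), with overlapping libraries. Fabp5, a fatty acid carrier that also binds retinoic acid, fell from 84.4 ± 6.98 to 58.4 ± 13.5 CPM (log2 fold change -0.53; edgeR, adjusted p = 0.0327). Leaving out a library ended the call of Aldh1a1 in 5 of 8 fits (WT replicates 1 and 4, Tbx20EH1Mut replicates 1, 3 and 4; adjusted p up to 0.0652) and of Fabp5 in 4 of 8 (WT and Tbx20EH1Mut replicates 3 and 4; up to 0.0987). With the foregut marker covariate 4 of the list were called, and without WT replicate 3, WT replicate 4, Tbx20EH1Mut replicate 1 or Tbx20EH1Mut replicate 4 the calls numbered 7, 6, 7 and 7. Aldh1a1 was also lost with limma-voom (adjusted p = 0.0938) and stood at a log2 fold change of -1.97 without WT replicate 1, and Fabp5 was lost with upper-quartile scaling (edgeR, adjusted p = 0.0686).

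Of 16 genes known to respond to retinoic acid, 15 were tested, 10 rose, 1 fell and 4 did not pass (median log2 fold change 1.69). The share called was 73.3%, against 29.3% of all genes. Cyp26a1, Dhrs3 and Crabp2 stand in both lists. The Hox genes Hoxb1 (1.58 ± 2.01 to 20 ± 10.5 CPM, log2 fold change 3.65), Hoxa4 (2.83) and Hoxa2 (2.76) had the largest rises among those with a mean of at least 1 CPM, with edgeR adjusted p of 0.00969, 0.00886 and 0.00128. With the foregut markers in the fit Hoxb1 stood at 2.29, and Hoxa4 at 2.15 was no longer called (edgeR, adjusted p = 0.0408 and 0.104). Tgm2, a transglutaminase and the 1 gene that fell, went from 159 ± 32.4 to 76.6 ± 14.0 CPM (log2 fold change -1.05; edgeR, adjusted p = 0.00256). These lists were written with results of the study in view and give no independent evidence of a direction.

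The genes that share the DR5 repeat of the Rarb start gave no common direction. Of the 31 genes with such a repeat in a window, 8 were tested, 2 rose (Rarb and Cyp26a1), 1 fell (Hbb-y, an embryonic globin) and 5 did not pass, so 37.5% were called against 29.3% of all genes. Cyp26a1, which degrades retinoic acid, carries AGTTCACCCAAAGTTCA on the strand opposite to its gene at chr19:37697776-37697792. It rose from 3.07 ± 0.694 to 9.91 ± 2.30 CPM (log2 fold change 1.69; edgeR, adjusted p = 0.00115), and Hbb-y had a log2 fold change of -1.80 (edgeR, adjusted p = 0.0101).

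The coregulators are the proteins that receptors recruit. Of 22 coregulators, 1 rose, 2 fell and 19 did not pass (13.6% called, against 29.3% of all genes; median log2 fold change -0.13). Nrip1, a corepressor that binds liganded receptors, rose from 13.2 ± 2.58 to 22.0 ± 3.20 CPM (log2 fold change 0.73, edgeR adjusted p = 0.0101). With the foregut markers in the fit Nrip1 stood at 0.34 and was no longer called (edgeR, adjusted p = 0.160). The arginine methyltransferase Carm1 fell from 77.7 ± 50.3 to 22.5 ± 13.9 CPM (edgeR, adjusted p = 0.0464) and the Gata cofactor Zfpm2 from 13.3 ± 1.0 to 9.83 ± 1.09 CPM (edgeR, adjusted p = 0.0352). Both calls were lost in 6 of the 8 fits that left out a library, those without WT replicates 2, 3 or 4 or Tbx20EH1Mut replicates 1, 3 or 4, with adjusted p up to 0.130 and 0.0863. Upper-quartile scaling ended both as well (edgeR, adjusted p = 0.0550 and 0.0673), as did limma-voom for Carm1 (0.0559) and no filter for Zfpm2 (edgeR, 0.0712).

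Of 13 other receptors that pair with RXR, 10 were tested, 2 rose and 0 fell (20% called, against 29.3% of all genes; median log2 fold change 0.07). Pparg, the receptor of adipose differentiation, rose from 0.776 ± 0.291 to 3.46 ± 0.854 CPM (log2 fold change 2.15; edgeR, adjusted p = 0.00172), and Nr1h4 had no count in any library. The vitamin D receptor Vdr, singled out after its value was seen, was the other call, at 0.544 ± 0.159 and 1.23 ± 0.261 CPM (edgeR, adjusted p = 0.0297). Its call was lost without WT replicate 3, WT replicate 4, Tbx20EH1Mut replicate 3 or Tbx20EH1Mut replicate 4 (edgeR, adjusted p = 0.0884, 0.0921, 0.0592 and 0.0762), without the filter (0.0675) and with the foregut covariate (0.130). Of 7 relatives of the COUP-TF genes, 3 were tested, Nr2f6 (log2 fold change -0.08), Nr2c1 (0.15) and Nr2c2 (-0.79), named after their values were seen. Of these, 0 were called by edgeR or limma-voom, while Nr2c2 was called by DESeq2 (adjusted p = 0.0363) and was the 1 with an unadjusted edgeR p under 0.05. Nr2c2 was called without WT replicate 1 (log2 fold change -0.95; edgeR, adjusted p = 0.0326) and with the foregut markers in the fit (-1.42; adjusted p = 0.00631).

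**Figure D5:**
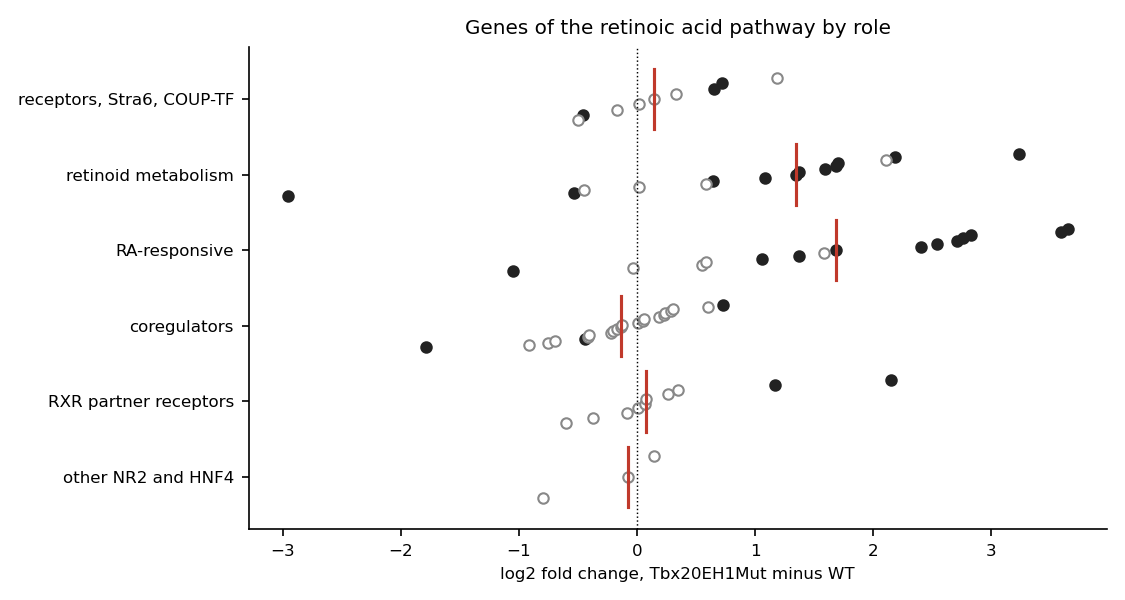
Log2 fold change (Tbx20EH1Mut minus WT) of every tested gene in 6 lists, 1 point per gene. Filled points passed an adjusted p of 0.05 in edgeR, and the red line is the list's median, which is 1.35 for retinoid metabolism, 1.69 for genes responsive to retinoic acid (RA) and between -0.13 and 0.14 for the others.

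The genes whose pattern over the 8 libraries was nearest to each called gene were found by the root mean square difference of centred log2 CPM, with a pseudocount of 0.5. They were Mocs1 (0.0632) and Prrg3 (0.0803) for Rarb, Cux2 (0.0549) and Zfp598 (0.0555) for Rxra, and Sfxn4 (0.0920) and Rpl23 (0.0979) for Nr2f2.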

How the data were processed

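The authors deposited, for each library, a table of unnormalized counts of reads or pairs on every Ensembl gene, with exon positions and summed exon length. The RNA was poly-A selected. The submitters' processing notes name Trimmomatic 0.36, STAR 2.5.2b and GRCm38, while the counting tool and strand setting are not given in the sources used here. Symbols came from GENCODE M21 (48970 of 49315 genes matched) and promoter windows from RefSeq GRCm38.p6.

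Counts were analysed with edgeR 4.0.16 in R 4.3.3 (filterByExpr, TMM scaling, glmQLFit and glmQLFTest, genotype as the only term), with Benjamini-Hochberg adjustment over 17163 genes. CPM used TMM-scaled library sizes, and levels between genes were divided by exon length. Means of CPM were tested by exact two-sided permutation over 70 arrangements (smallest p 0.0286). On simulated counts for this comparison, over 16942 genes, 49% of genes changed by a log2 of 1 and 94% of those changed by 2 were recovered. Of the calls, 4.03% were false. The simulation gave every gene the common dispersion (0.0707) and changed far fewer genes than were called in the data. These rates therefore need not hold for the data. Libraries within each genotype all differed beyond sampling noise, pair by pair (chi-square per degree of freedom 11.0 to 231).

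The genes, lists and tests were chosen with earlier results of these data known. Named genes are all 9, up to 3 of the largest called rises and falls of each list with a mean of at least 1 CPM, list genes at 0 in every library, genes sharing exon bases and the 2 nearest in pattern to each called gene. Marker lists are described by counts and sums, with few named. A gene that this rule names is not reported here. Alternatives were RLE and upper-quartile scaling, DESeq2 1.42.0, limma-voom (limma 3.58.1), other filters, a replicate block, the mean log2 CPM of foregut markers as a covariate, TPM, and leaving out each library. Scripts used Python 3.11.15, numpy 2.4.6, pandas 2.3.3, scipy 1.17.1 and matplotlib 3.10.9. At 17 to 4577 counts per library, the fold changes of Stra6 and Rarg have the widest errors.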

Additional observations from a re-analysis of the deposited data

Results flagged for a closer look

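Nr2f1 in Tbx20EH1Mut replicate 3, at 44.2 CPM, stood apart from the other mutant libraries: its gap to the nearest of them was 0.857 of the group's range, above Dixon's 95% critical value for 4 samples. It was 1 of 22 groups examined in this way, where chance alone marks about 1 in 20. This library had the lowest foregut marker sum of the mutants, 37.9 CPM, and its part in the level was not tested.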

How the results depend on the processing

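Over 890 fits of single named genes under another setting, 755 kept both direction and side of the threshold, 117 lost a call, 8 gained one and 10 turned their sign. With the foregut marker covariate, which moves with genotype, the log2 fold change turned to -0.10 for Rara, -0.59 for Rarg, -0.30 for Rxrb, 0.11 for Rxrg and 0.10 for Nr2f1, none of them called. Among other genes named above, it ended the calls of Fabp5 and Zfpm2 at larger log2 fold changes of -0.61 and -0.54 (edgeR, adjusted p = 0.0755 and 0.0505). It ended those of Aldh1a1, Mocs1 and Prrg3 at smaller ones of -1.97, 0.29 and 0.19 (edgeR, adjusted p = 0.318, 0.289 and 0.600), besides those given beside their results. Carm1 at -3.19 stayed called but moved by over 1.5 times, as did Shh at 1.66, Emcn at 1.07 and Zfp598 at -0.82. Epcam at 0.56 and Foxa2 at 0.51 lost their calls (edgeR, adjusted p = 0.154 and 0.327). Shh, Epcam and Foxa2 are among the markers that make up the covariate. Cux2 at -0.91 gained a call (edgeR, adjusted p = 0.00441). Over the fits that left out a library, Rarg ran from -0.17 (without Tbx20EH1Mut replicate 1) to 0.39 and Rxrb from -0.064 to 0.12, with a negative sign without WT replicate 1 or Tbx20EH1Mut replicate 1 or 2. On the TPM scale the ratio of means was 0.954 for Rarg and 0.855 for Rxrb, against 1.10 and 1.01 in CPM, 1.32 for Rarb against 1.57, and 0.607 for Nr2f1 (exact permutation test, p = 0.0286) against 0.706. TPM lowered the ratio of each of the 9 genes, and also those of Meis1 (0.814 against 0.980) and Thra (0.901 against 1.06). The turned signs of Rarg and Rxrb therefore say nothing particular about these 2 genes.

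Retinoid metabolism calls numbered 11, and 4 with the foregut covariate. Coregulator calls numbered 3, but 6 with DESeq2, 1 with the replicate block and 5 with the foregut covariate. RXR partner calls numbered 2, and 1 without the filter, with the replicate block or with the foregut covariate, where Vdr was the call lost. Leaving out a library gave 1 to 4 calls among the 9 genes by either threshold, 6 to 12 for retinoid metabolism, 11 to 12 for responsive genes, 1 to 6 for coregulators, 1 to 2 for RXR partners and 3001 to 6586 over all genes. The cause was not tested. Upper-quartile scaling raised the median of all genes by 0.0855 (log2) and moved the share of calls that were higher from 47.9% to 58.9%, and it turned Nr2f6 from -0.08 to 0.0055.

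The deviations of same-numbered libraries correlated at -0.256, 0.328, 0.0520 and 0.0588, and no library correlated best with its own number, so the numbers were not used to pair them. The replicate block took the calls over all genes from 5024 to 3945 and those among the 9 genes from 3 to 2, losing Rxra (log2 fold change -0.45; edgeR, adjusted p = 0.0605). The block also ended the calls of Aldh1a1, Carm1, Zfpm2, Vdr, Emcn and Barx1 (edgeR, adjusted p = 0.0595, 0.0551, 0.0680, 0.0823, 0.0556 and 0.0622). Permutation tests were not repeated without a library, because the smallest two-sided p of 3 against 4, doubling the smaller tail as in the main test, is 0.0571 (2 of 35 arrangements). Stra6 in WT replicate 1 rests on 17 counts.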
